A study of Mus musculus with 9 samples.

Results

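Livers of mice given an agonist CD40 antibody were examined for 10 genes of iron handling, which were taken from the FPKM table by name: the hepcidin genes Hamp and Hamp2, the exporter gene Slc40a1 and its partner Cp, the uptake genes Trf, Tfrc, and Tfr2, the reductase gene Steap4, and the ferritin genes Fth1 and Ftl1. All 10 had a row among the 24341 genes of the table, and all 10 passed the filter on low values that left 13807 genes for testing. RNA came from whole liver of 9 C57BL/6 mice of WT genotype, collected 48 hours after treatment. The group called anti-CD40 (mice 2, 5, and 9) received FGK45, an antibody that activates CD40, and the control group (mice 3, 4, 7, 8, 11, and 12) is labelled PBS. The study's methods describe its mice in general as sex-matched young adults. They also state that some anti-CD40 mice were excluded for lacking the usual inflammatory response, judged by a fall of B cells in blood. Whether this choice touched the sequenced group is not given. Each library is 1 mouse from 1 experiment, and libraries were read from the 3′ end of transcripts with the QuantSeq method.

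Hepcidin is a peptide hormone made mainly by hepatocytes. It binds ferroportin, the iron exporter encoded by Slc40a1, and causes its degradation, so that macrophages, enterocytes, and hepatocytes keep their iron and plasma iron falls. Iron raises hepcidin through BMP ligands and SMAD proteins, and inflammation raises it through IL-6 and STAT3. Transferrin (Trf) carries iron in plasma, the receptor encoded by Tfrc takes it into cells, and ferritin, built from the subunits encoded by Fth1 and Ftl1, stores it. Mice carry a pair of hepcidin genes, and Hamp is the one known to regulate iron.

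The stretches upstream of Hamp, Hamp2, and Steap4 are shown because the hepcidin paralogs parted in how their RNA changed, and because these 3 genes were the members whose upstream 250 bases held a STAT-type palindrome. The sequences are the 250 bases before the RefSeq start site in GRCm38.p6, which is the mm10 assembly. Capitals mark a GGCGCC hexamer, the core of a BMP response element, its aligned counterpart in Hamp2, and matches to TTCNNNGAA, the spacing bound by STAT proteins. Both motifs read the same on either strand, and they did not overlap each other here.
Hamp, chr7:30944030-30944279, minus strand: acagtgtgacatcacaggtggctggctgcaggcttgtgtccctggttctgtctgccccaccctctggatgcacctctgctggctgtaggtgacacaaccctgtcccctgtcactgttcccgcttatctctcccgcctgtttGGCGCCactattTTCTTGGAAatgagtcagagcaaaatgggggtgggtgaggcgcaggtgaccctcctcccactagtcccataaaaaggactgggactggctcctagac
Hamp2, chr7:30924182-30924431, minus strand: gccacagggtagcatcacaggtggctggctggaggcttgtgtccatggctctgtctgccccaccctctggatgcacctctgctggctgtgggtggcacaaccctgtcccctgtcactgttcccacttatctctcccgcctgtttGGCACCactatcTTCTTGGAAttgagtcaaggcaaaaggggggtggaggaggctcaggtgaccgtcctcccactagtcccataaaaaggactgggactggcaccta
Steap4, chr5:7960222-7960471, plus strand: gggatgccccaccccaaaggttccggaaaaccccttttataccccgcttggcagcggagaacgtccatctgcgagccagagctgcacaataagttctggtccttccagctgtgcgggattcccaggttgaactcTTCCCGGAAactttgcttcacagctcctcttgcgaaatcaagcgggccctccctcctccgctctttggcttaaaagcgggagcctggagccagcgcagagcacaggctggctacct

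The Hamp and Hamp2 stretches were identical in 227 of 253 aligned columns (89.7%). The STAT-type palindrome TTCTTGGAA stood in both, with its first base 97 bases before the start site of Hamp and 94 before that of Hamp2. The hexamer GGCGCC began 109 bases before the start of Hamp. Its counterpart, 106 bases before the start of Hamp2, carried 1 substitution, G4A, with the Hamp base first and positions counted from 1 at the 5′ end of the hexamer. RefSeq windows, 13 in all, were found for 8 members (Slc40a1 and Trf were not matched). Among these, GGCGCC was upstream of Hamp and of 1 of the 2 start sites of Tfrc. TTCNNNGAA was upstream of Hamp, Hamp2, and Steap4, and in Steap4 it began 116 bases before the start site. Of all 32851 promoter windows in the table, 9.59% held GGCGCC and 7.02% held TTCNNNGAA in their upstream 250 bases. These matches describe letters and were not tested for binding.

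Iron responsive elements are the second set of sequences shown, because the iron regulatory proteins that bind them control Fth1, Ftl1, Slc40a1, and Tfrc after transcription, a step that mRNA levels show only in part. An element was sought on the sense strand of protein-coding transcripts (GENCODE vM21) as an unpaired C, a stem of 5 base pairs with at most 1 mismatch or G-T pair, and the loop CAGTGN, which is in capitals.
Fth1, 5′ UTR, chr19:9982738-9982754, plus strand: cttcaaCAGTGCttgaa
Ftl1, 5′ UTR, chr7:45459785-45459801, minus strand: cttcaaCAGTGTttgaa
Slc40a1, 5′ UTR, chr1:45925471-45925487, minus strand: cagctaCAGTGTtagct
Tfrc, 3′ UTR, chr16:32631225-32631241, plus strand: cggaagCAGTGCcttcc
Tfrc, 3′ UTR, chr16:32631604-32631620, plus strand: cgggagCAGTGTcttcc
Tfrc, 3′ UTR, chr16:32631669-32631685, plus strand: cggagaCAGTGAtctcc
Tfrc, 3′ UTR, chr16:32631716-32631732, plus strand: cgggaaCAGTGTttccc
The search found 7 elements in 4 members and none in the other 6, and 3.41% of the 21877 genes searched held a match. In the 5′ UTR such an element holds back translation when iron is low, and in the 3′ UTR of Tfrc the elements protect the mRNA from decay. The ferritin, ferroportin, and receptor proteins were not measured in these libraries.

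The table gives no read totals, so depth is unknown, and the steps between low values place the relative depth of the 9 libraries between 0.870 and 1.13 times their geometric mean. The acute phase genes Saa1, Saa2, and Saa3 together held 25.4% to 25.9% of the summed FPKM in anti-CD40 mice and 0.0449% to 0.380% in control mice. FPKM scales fragments to transcript length and to a measure of library size, and the measure used here is not given. The deposited values were already level between mice: over genes detected in all mice, the median ratio to the geometric mean was 1.004 to 1.010 in each mouse. They were tested with limma as log2(FPKM + 0.1), a scale that understates changes of low genes. A gene was called at an adjusted p under 0.05 (Benjamini-Hochberg over the 13807 genes). Fold changes in log2 are given on this scale with their standard error (SE), and anti-CD40 minus control is the direction. Of all genes tested, 45.1% were called, 23.5% higher and 21.7% lower after anti-CD40, and the groups did not overlap in 42.4%. Without the Saa genes and with each mouse rescaled to the same total, the median of all genes shifted by 0.35 on the log2 scale, and 5635 genes were called higher and 1647 lower in place of 3240 and 2990. Anti-CD40 mouse 5 held RNA of pancreatic enzymes (Ctrb1 at 73.1 FPKM, against at most 0.259 in the other mice), and control mouse 4 had the highest summed FPKM of erythroid markers, 50532, against 7494 to 13469 in the other control mice. In whole liver, fewer cells of a type and less RNA per cell cannot be told apart.

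After anti-CD40, 7 of the 10 iron genes were called, a share of 70.0%, against 45.1% of all genes tested. Of these, 4 were higher (Steap4, Cp, Trf, and Fth1) and 3 lower (Hamp2, Ftl1, and Slc40a1). Treated and control values were fully apart in 6 of the 10, against 42.4% of all genes tested. They were apart in Steap4, Cp, and Fth1 on the higher side and in Hamp2, Ftl1, and Slc40a1 on the lower. Hamp, Tfrc, and Tfr2 did not pass the test. The median size of the log2 fold change was 1.17 over the members and 0.49 over all genes tested, and the median signed change was 0.24 over the members and 0.01 over all genes.

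**Figure D1:**
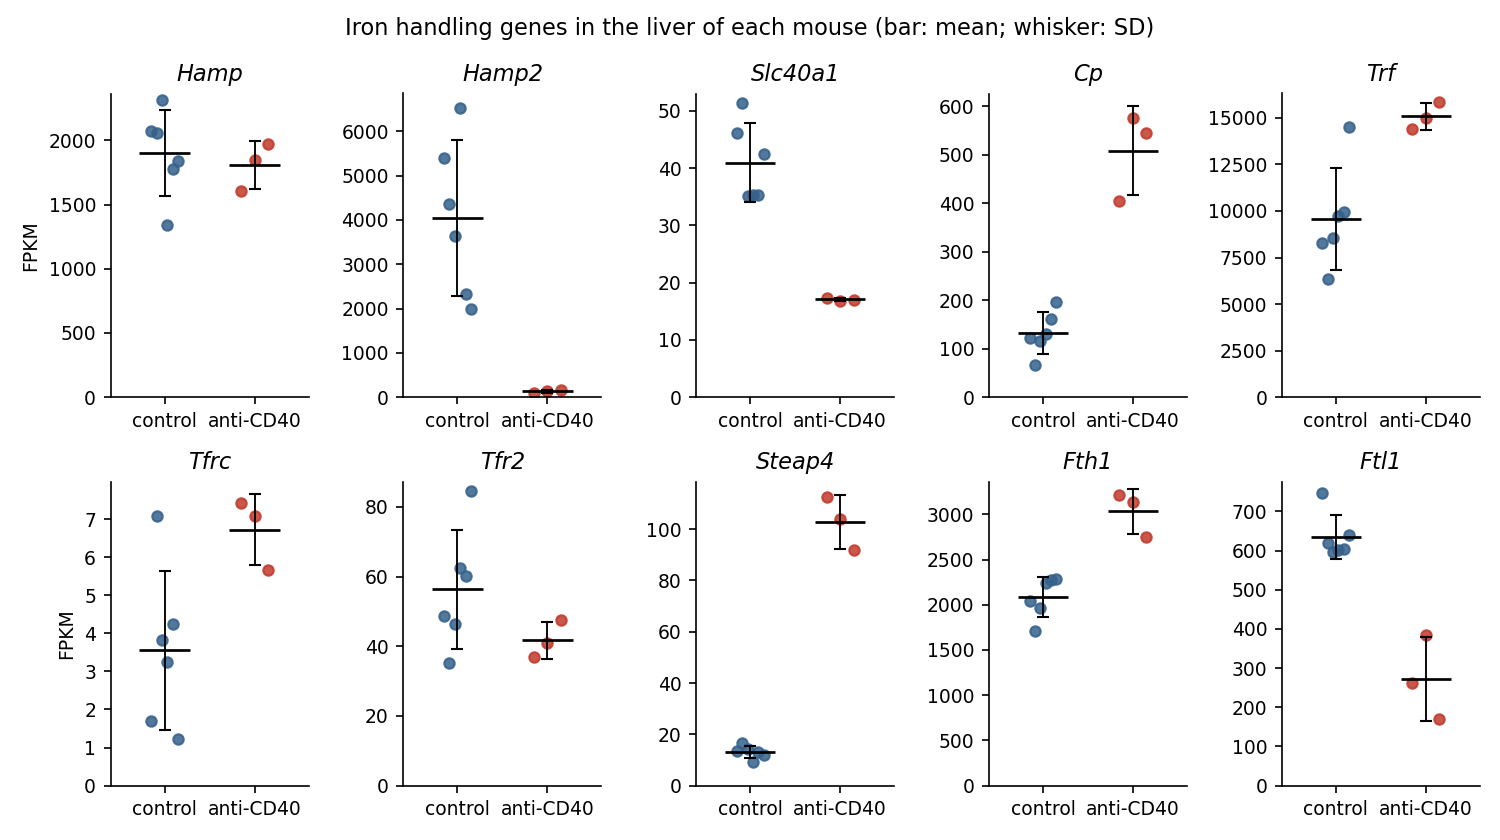
FPKM of the 10 iron genes (vertical axes from 0, a scale of its own for each gene) in each control mouse (blue, 6 mice) and each anti-CD40 mouse (red, 3 mice), with bars at the mean and whiskers of 1 SD. Hamp2 lay between 97.4 and 158 FPKM in anti-CD40 mice and between 1999 and 6530 in control mice. The Hamp points of anti-CD40 mice, 1602 to 1971, lay inside the wider control range of 1343 to 2316.

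The hepcidin genes responded unequally. Hamp, the gene of the iron hormone, had an FPKM of 1602, 1846, and 1971 in the treated mice 2, 5, and 9, and a lowest, median, and highest control value of 1343, 1950, and 2316. All 3 treated mice lay inside the control range. The treated mean was 1806 ± 187 (SD, n = 3) and the control mean 1902 ± 334 (SD, n = 6), and the log2 fold change was -0.06 (SE 0.17, adjusted p = 0.800 from limma, 95% interval -0.44 to 0.32). The sign of this difference depended on the scaling: it was 0.31 with the Saa genes left out, which is -0.04 relative to the median of all genes there, and 0.22 after quantile normalization, without passing the test in either.

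Hamp2, the paralog next to Hamp on chromosome 7 (mm10, chr7:30922372-30924181), had an FPKM of 97.4, 135, and 158 in the treated mice 2, 5, and 9. In control mice its lowest value was 1999, the median 3995, and the highest 6530. Every treated mouse lay below every control mouse, and control values ranged more widely than for Hamp. The mean fell from 4040 ± 1757 (SD, n = 6) to 130 ± 30.6 (SD, n = 3), 31.0-fold lower as a ratio of means. The log2 fold change was -4.86 (SE 0.36, adjusted p = 4.26e-06 from limma), the 20th largest decrease among the 13807 genes.

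Within a mouse, the log2 difference between Hamp and Hamp2 was 4.04, 3.77, and 3.64 in the treated mice 2, 5, and 9, and between -2.28 and -0.12 in control mice. Hamp was thus the higher of the paralogs in every treated mouse and the lower in every control mouse. The group difference of 4.80 had the smallest p that the exact permutation test over 84 splits allows (2-sided, p = 0.0238, adjusted p = 0.0357 over the 3 gene pairs compared). Hamp2 made up 5.73% to 7.41% of the summed FPKM of both genes after anti-CD40 and 52.0% to 82.9% in control mice. That sum was 1700 to 2129 in treated mice and 3841 to 7872 in control mice, without overlap. The reference transcripts measure 410 and 437 bases, so the division by length in FPKM treats the paralogs nearly alike.

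Because the hepcidin transcripts are 88.8% identical, reads could be given to the wrong paralog. Their longest shared run was 87 bases, and of the windows of 50 bases in the last 300 bases of each transcript, 8.76% for Hamp and 5.98% for Hamp2 also occurred in the other gene. These are exact matches, while the paper states that its alignment allowed mismatched bases, so the shares understate how many reads could match both genes. How reads with several matches were counted is not given in the sources used here. Both genes overlap Gm44662 on the opposite strand in GENCODE, and the strand setting of the counting is not given either.

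Ferroportin mRNA fell and its oxidase partner rose. Slc40a1, the only known cellular iron exporter, had an FPKM of 17.3, 16.8, and 17.0 in the treated mice 2, 5, and 9, and a lowest, median, and highest control value of 35.1, 38.9, and 51.3. The groups did not overlap, and the treated mice were close together. The mean fell from 40.9 ± 6.87 (SD, n = 6) to 17.1 ± 0.24 (SD, n = 3), and the log2 fold change was -1.24 (SE 0.14, adjusted p = 6.27e-05 from limma).

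Cp, which encodes ceruloplasmin, the plasma copper protein that oxidizes iron as it leaves the cell, was at 404, 575, and 546 FPKM in the treated mice 2, 5, and 9. Control values had a lowest of 67.3, a median of 126, and a highest of 196. Every treated mouse was above every control mouse, by a ratio of means of 3.85. The log2 fold change was 2.00 (SE 0.28, adjusted p = 2.59e-04 from limma). The gene overlaps Hps3 on the opposite strand, where the FPKM was at most 1.33 in any mouse.

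Of the 3 uptake genes, 1 was called. Trf, the gene of transferrin, had an FPKM of 14414, 14980, and 15836 in the treated mice 2, 5, and 9, and a lowest, median, and highest control value of 6363, 9153, and 14525. The groups overlapped through control mouse 12 alone, which lay above anti-CD40 mouse 2. The mean rose from 9577 ± 2745 (SD, n = 6) to 15077 ± 716 (SD, n = 3), with a log2 fold change of 0.70 (SE 0.22, adjusted p = 0.0272 from limma). This call was lost when any 1 of 5 mice was left out (log2 fold change 0.66 to 0.73, adjusted p up to 0.0859 without anti-CD40 mouse 9), and without the filter on low values (adjusted p = 0.520).

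Tfrc, the gene of transferrin receptor 1, was low in liver, with 7.43, 7.07, and 5.67 FPKM in the treated mice 2, 5, and 9. Control mice had a lowest value of 1.24, a median of 3.53, and a highest of 7.07. Of the 6 control mice, 5 were below all treated mice, and control mouse 4 stood among them. The log2 fold change was 1.11 (SE 0.45, adjusted p = 0.0694 from limma) and did not pass the test. It passed without control mouse 4 (1.34, adjusted p = 0.0144), with the Saa genes left out (1.46, adjusted p = 0.0235), and with array weights (1.16, adjusted p = 0.0149). The value with the Saa genes left out is 1.11 relative to the median of all genes there.

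Erythroid precursors and dividing cells are known for high Tfrc, so the markers of both were read beside it. Control mouse 4 had the highest erythroid sum of all mice. It also had the highest sum of neutrophil markers among the control mice, 156 FPKM, against 18.3 to 82.8 in the others. Among the 6 erythroid genes tested none was called, and their sum was 4176 to 14320 in anti-CD40 mice and 7494 to 50532 in control mice, with Hba-a1 at the floor of 0.01 throughout. All 8 markers of dividing cells rose, and their summed FPKM was 105 to 148 in anti-CD40 mice and 7.82 to 28.0 in control mice, while mouse 4, at 13.2, lay inside the control range. The part of these cells in the Tfrc values was not tested.

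**Figure D2:**
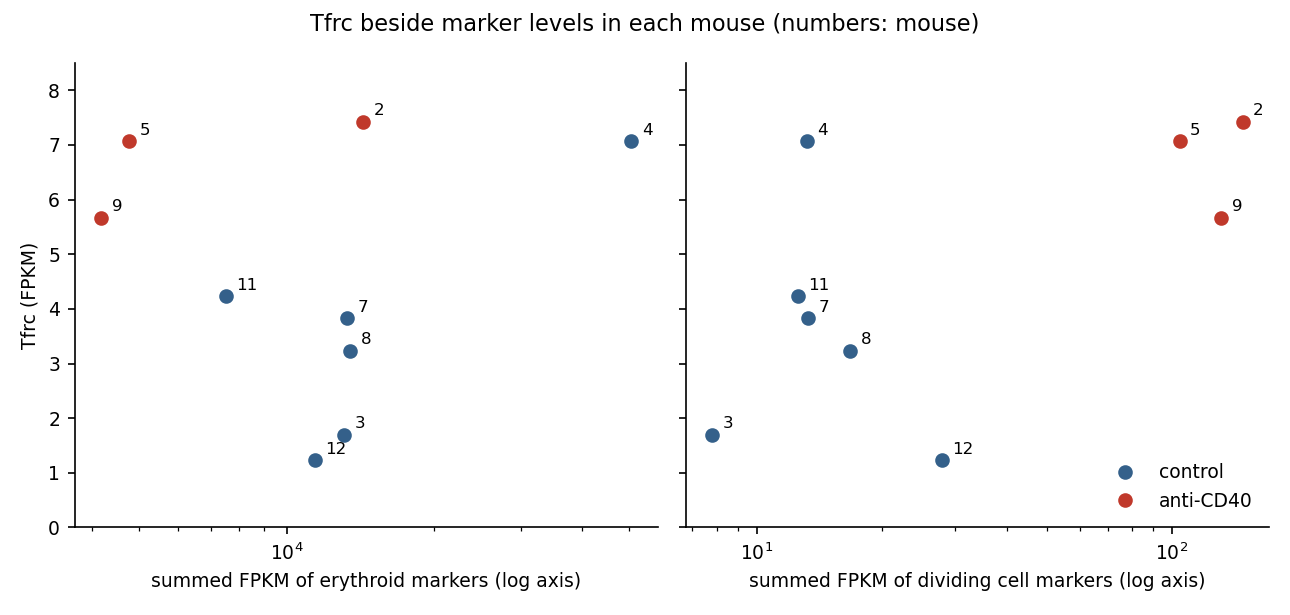
Tfrc (vertical axis, FPKM) in each mouse against the summed FPKM of erythroid markers (left) and of markers of dividing cells (right), both on log axes, with the mouse number beside each point. Control mouse 4, at 7.07 FPKM of Tfrc, has the highest erythroid sum, 50532, and a sum of dividing-cell markers, 13.2, that lies among the other control mice.

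Tfr2, the receptor of hepatocytes that senses transferrin-bound iron upstream of hepcidin, had 36.8, 40.8, and 47.4 FPKM in the treated mice 2, 5, and 9, and a lowest, median, and highest control value of 35.3, 54.4, and 84.7. The treated mice lay in the lower part of the control range. The log2 fold change was -0.39 (SE 0.23, adjusted p = 0.206 from limma, 95% interval -0.91 to 0.13). Within a mouse, the log2 difference of Tfrc from Tfr2 was -3.04 to -2.29 after anti-CD40 and -5.99 to -2.30 in control mice. The group difference of 1.49 did not pass the exact permutation test (2-sided, p = 0.0714, adjusted p = 0.0714), but did without control mouse 4 (1.85, adjusted p = 0.0357).

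Steap4 had the largest rise of the members. It encodes a metalloreductase that converts ferric to ferrous iron and is known to respond to inflammatory cytokines. Its FPKM was 112, 104, and 91.7 in the treated mice 2, 5, and 9, and had a lowest, median, and highest control value of 9.28, 13.4, and 16.5. The treated mice stood far above all control mice, with a ratio of means of 7.79. The log2 fold change was 2.97 (SE 0.17, adjusted p = 8.17e-07 from limma), the lowest adjusted p of the 10 members.

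The ferritin subunits moved in opposite directions. Fth1, the heavy subunit with ferroxidase activity, had an FPKM of 3213, 3133, and 2751 in the treated mice 2, 5, and 9, and a lowest, median, and highest control value of 1715, 2142, and 2285. The groups did not overlap. The mean rose from 2086 ± 226 (SD, n = 6) to 3032 ± 247 (SD, n = 3), with a log2 fold change of 0.54 (SE 0.13, adjusted p = 0.00642 from limma).

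Ftl1, the light subunit that helps form the mineral core, was at 261, 385, and 170 FPKM in the treated mice 2, 5, and 9. Control mice had a lowest value of 596, a median of 611, and a highest of 746. All treated mice were below all control mice, and they spread more widely than the controls. The mean fell from 634 ± 56.9 (SD, n = 6) to 272 ± 108 (SD, n = 3), with a log2 fold change of -1.30 (SE 0.21, adjusted p = 6.39e-04 from limma).

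The log2 difference between Fth1 and Ftl1 within a mouse was 3.62, 3.03, and 4.02 in the treated mice 2, 5, and 9, and 1.45 to 1.91 in control mice. The groups were apart by 1.84 (exact permutation test, 2-sided, p = 0.0238, adjusted p = 0.0357). Fth1 was higher and Ftl1 lower in every treated mouse than in any control mouse, so this p had to be the smallest possible. The pair test adds no evidence to the single-gene results. The Ftl1 value is uncertain, since 65.7% of the windows of 50 bases in the last 300 bases of its transcript also occur in 11 other annotated genes, among them the pseudogenes Ftl1-ps1, Ftl1-ps2, and Ftl2-ps. No such window of Fth1 was shared, nor of Tfrc, Tfr2, Trf, Steap4, Slc40a1, or Cp. Only the longest protein-coding transcript of each gene was searched, and only for exact matches in annotated transcripts. Other transcript ends and matches with mismatched bases were not examined. In GENCODE, Ftl1 also overlaps Gm22133 on its own strand and Gm10252 on the other, and Trf overlaps Gm20425 on its own strand.

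**Figure D3:**
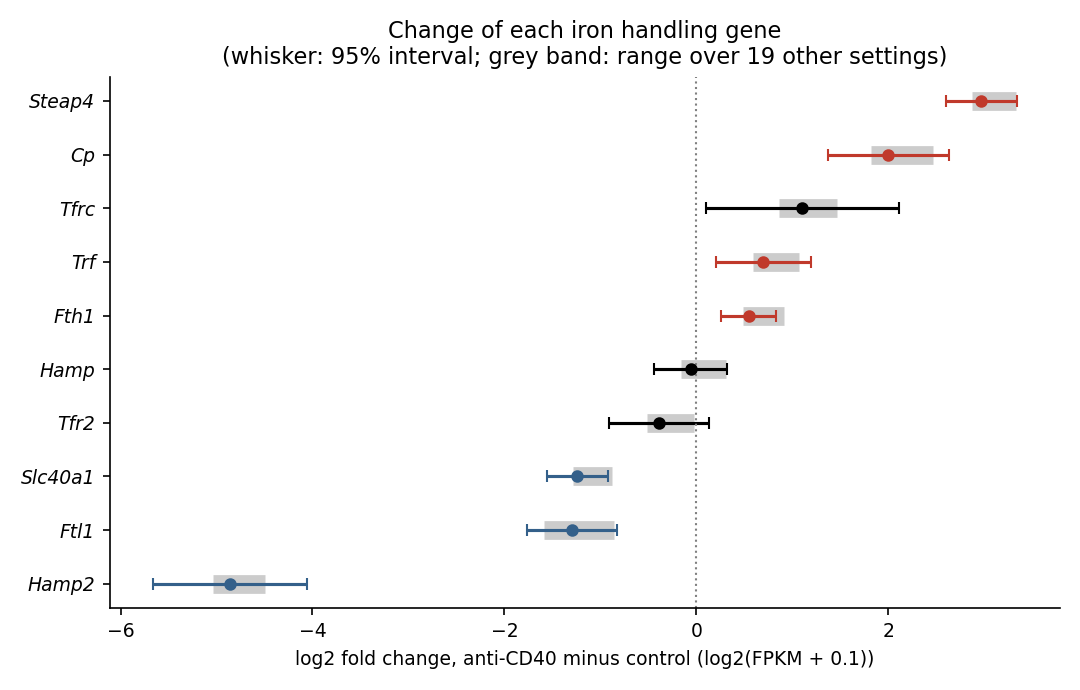
Log2 fold change of each iron gene (horizontal axis, anti-CD40 minus control), with whiskers for the 95% interval of the main fit and grey bands for the range over 19 other settings. Red and blue points are called higher and lower, and black points are not called: Hamp (-0.06), Tfrc (1.11), and Tfr2 (-0.39).

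Marker lists of 7 cell types were read in the same samples. Of 8 hepatocyte markers 7 fell, Alb among them, while Trf and Cp, both known as hepatocyte genes, rose. The summed FPKM of the 8 markers was 5240 to 6275 in anti-CD40 mice and 13965 to 24895 in control mice. It rests mainly on Ttr, Alb, and Apoa1, with control means of 6113, 5040, and 2926 FPKM. Hnf4a was not called (log2 fold change -0.44, adjusted p = 0.139 from limma). Of 8 Kupffer cell markers, 7 fell, and their sum was 58.2 to 73.9 against 305 to 486, lower in the same mice in which Slc40a1, a gene of iron-recycling macrophages, was lower. Recruited monocyte and macrophage markers (6 of 8 higher, 1 lower) and neutrophil markers (all 7 with a row higher) summed to 316 to 433 against 45.8 to 79.9 and to 4219 to 5206 against 18.3 to 156. Of 8 sinusoidal endothelial markers, 2 rose and 4 fell, with sums of 93.6 to 96.5 against 107 to 130, and 1 of them, Bmp2, also stands in the BMP-SMAD list below. What these cells contributed to the values of the iron genes was not tested.

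Around the members stand 90 further genes of the iron pathways, compiled from general knowledge, of which 85 were tested and 49 (57.6%, against 45.1% of all genes) called, 26 higher (30.6%, against 23.5%) and 23 lower (27.1%, against 21.7%). With the Saa genes left out, 35 of the 85 were higher and 13 lower, beside 5635 and 1647 of all 13860 genes tested there. The higher genes thus made up 72.9% of those called on the lists and 77.4% of those called among all genes. The larger number of higher genes in this setting is therefore not particular to the iron pathways. The lists are described by counts only.

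**Figure D4:**
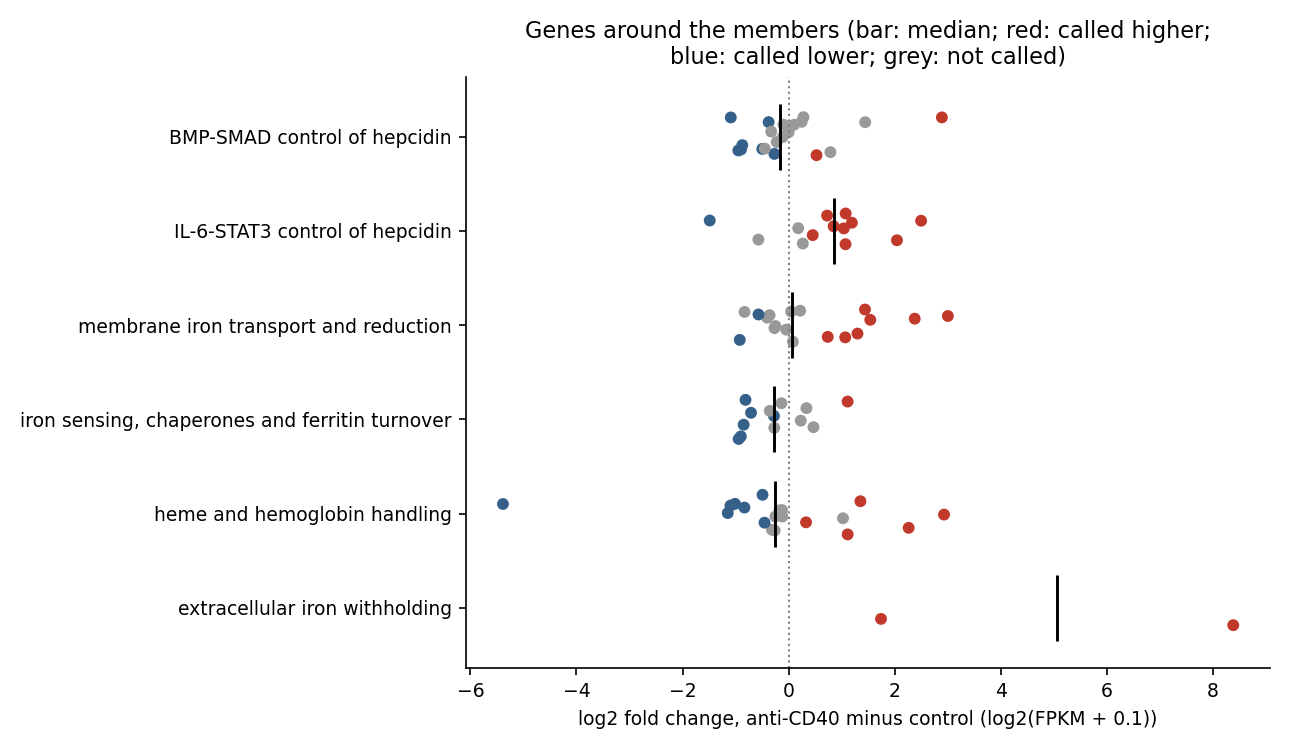
Log2 fold change (horizontal axis, anti-CD40 minus control) of the 85 tested genes of 6 iron pathway lists, 1 point for each gene, with a bar at the median of each list. The list of IL-6 and STAT3 control has 9 of 13 genes called higher (red, 69.2% against 23.5% of all genes). That of iron sensing, chaperones, and ferritin turnover has 6 of 13 called lower (blue, 46.2% against 21.7%).

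The BMP-SMAD list carries the iron signal to hepcidin. Of its 20 tested genes, 2 were called higher and 7 lower, and the called share, 45.0%, was that of all genes, 45.1%. The median log2 fold change was -0.17. Bmper, a secreted BMP-binding protein, rose from 0.223 ± 0.097 (SD, n = 6) to 2.22 ± 0.19 FPKM (SD, n = 3), or by 2.89 in log2 (adjusted p = 7.30e-06 from limma), and Smad1, a signal carrier of the pathway, rose by 0.53 (adjusted p = 0.0136). Tmprss6, the protease that cuts hemojuvelin and so restrains hepcidin, fell from 63.4 ± 9.58 to 29.6 ± 3.61 FPKM (log2 fold change -1.09, adjusted p = 1.88e-04). Hfe, which works with Tfr2 in iron sensing, fell from 8.35 ± 0.97 to 4.27 ± 0.42 FPKM (log2 fold change -0.95, adjusted p = 1.89e-04), and Smad9 fell by 0.90 on the log2 scale (adjusted p = 0.0184). Bmp6, the main BMP ligand of this axis, was below the filter, and its values correspond to 1, 3, and 1 reads in the treated mice 2, 5, and 9 and 0 to 4 in control mice, which does not allow a difference to be seen.

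The IL-6-STAT3 list carries the inflammatory signal. Of its 13 tested genes, 9 were called higher and 1 lower, with a median log2 fold change of 0.85. The called share was 76.9%, against 45.1% of all genes. Socs3, the feedback inhibitor induced by STAT3, rose from 1.31 ± 0.63 to 7.26 ± 0.97 FPKM (log2 fold change 2.50, adjusted p = 2.20e-04 from limma). Il22ra1, a receptor chain for IL-22, rose by 2.04 (adjusted p = 1.02e-04). Il6 itself rose by 1.19 (adjusted p = 0.0121), on values that correspond to 6, 6, and 4 reads in the treated mice 2, 5, and 9 and 0 to 3 in control mice. Cebpa, a hepatocyte factor that drives Hamp transcription, fell from 113 ± 37.0 to 38.8 ± 2.78 FPKM (log2 fold change -1.49, adjusted p = 4.89e-04). Known activators and inhibitors of Hamp stood on both sides of these lists, with Il6 and the inhibitor Socs3 higher and Hfe and the inhibitor Tmprss6 lower.

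Of 18 tested genes of membrane iron transport and reduction, 9 were called and 9 were not, close to the 45.1% called among all genes. Of the 18, 7 were called higher (38.9%, against 23.5% of all genes) and 2 lower (11.1%, against 21.7%). Steap1, a relative of Steap4, rose from 0.696 ± 0.27 to 6.00 ± 0.55 FPKM (log2 fold change 3.00, adjusted p = 1.30e-05 from limma). Scara5, a receptor that takes up ferritin, rose from 0.0472 ± 0.043 to 0.650 ± 0.16 FPKM (2.38, adjusted p = 7.45e-05), and Slc11a1, the metal transporter of phagosomes, rose by 1.54 (adjusted p = 0.00295). Abcb10, a mitochondrial transporter linked to heme synthesis, fell from 8.87 ± 1.08 to 4.61 ± 0.25 FPKM (-0.92, adjusted p = 2.08e-04).

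Of 13 tested genes of iron sensing, chaperones, and ferritin turnover, 1 was called higher and 6 lower, a called share of 53.8% against 45.1% of all genes. The higher gene was Hif1a, an oxygen- and iron-sensitive transcription factor, at 20.7 ± 2.39 against 9.51 ± 0.69 FPKM (log2 fold change 1.11, adjusted p = 2.65e-05 from limma). Among the lower genes were Glrx5 (-0.90, adjusted p = 7.42e-04) and Nfs1 (-0.85, adjusted p = 1.68e-04), which both serve the assembly of iron-sulfur clusters in mitochondria.

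Of 19 tested genes of heme and hemoglobin handling, 5 were called higher and 7 lower, a called share of 63.2% against 45.1% of all genes. The plasma scavengers rose: Hpx, which binds heme, from 1727 ± 402 to 12890 ± 951 FPKM (log2 fold change 2.93, adjusted p = 2.32e-06 from limma), and Hp, which binds hemoglobin, from 3409 ± 1555 to 15778 ± 4847 FPKM (2.26, adjusted p = 2.59e-04). Hmox1, which breaks heme down and frees its iron, rose by 1.35 (adjusted p = 3.46e-04). Cd163, the macrophage receptor for haptoglobin-bound hemoglobin, fell from 7.26 ± 3.73 to 0.0634 ± 0.056 FPKM (log2 fold change -5.39, adjusted p = 6.25e-06), beside the lower Kupffer cell markers already given. Alad, an enzyme of heme synthesis, and Hebp1, a heme-binding protein, fell from 53.3 ± 7.85 to 23.8 ± 1.003 FPKM and from 410 ± 63.5 to 190 ± 12.3 FPKM (adjusted p = 8.20e-05 and 1.45e-04). Both genes of extracellular iron withholding rose, Lcn2, which captures bacterial siderophores, by 8.38 on the log2 scale (adjusted p = 5.50e-07) and Ltf, the iron-binding lactoferrin of neutrophil granules, by 1.74 (adjusted p = 7.75e-05), from 0 to 2 reads in control mice to 17, 18, and 12 in the treated mice 2, 5, and 9.

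For 4 members the genes with the most similar course over the 9 mice were sought, by the root mean square difference between log2 values taken from the control mean. Nearest to Hamp were Gas6, Lats2, and Rspry1, at 0.13, 0.13, and 0.14. Nearest to Slc40a1 were Idh1, Pccb, and 9430038I01Rik, at 0.14, 0.15, and 0.15, and nearest to Steap4 were Relt, Ccdc120, and Ccdc88a, at 0.17, 0.20, and 0.20. Tfrc had less close neighbours, Slc1a3, S100pbp, and Ncapg2, at 0.25, 0.29, and 0.31. Relt and Ccdc120 averaged 0.102 and 0.0907 FPKM in control mice, near the 0.1 added before taking logs, which understates their rise. The neighbours of Tfrc were also low, at control means of 0.137 to 0.302 FPKM. With 13807 genes to choose from, such likeness is a description only.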

How the data were processed

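RNA from 9 mouse livers was made into QuantSeq 3′ FWD libraries and run on a NextSeq 500. The authors aligned reads to mm10 with STAR and deposited FPKM values from Cufflinks and CuffDiff, with a floor of 0.01. The annotation, the filter on the table, and the handling of strand and of reads with several matches are not given in the sources used here. FPKM divides by transcript length although 3′ reads do not scale with it, so levels of different genes compare poorly, while length cancels in a fold change. Depth is unknown, so no counting intervals were computed. Low values were stepped, and reads are the smallest whole numbers that match within 0.01. Reads could not be recovered for the members, so no count test was run.

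Genes with a failed estimate (15) were left out, leaving 24326. Where the mean FPKM over all mice reached 0.1, log2(FPKM + 0.1) was fitted on treatment alone by limma 3.58.1 (R 4.3.3, lmFit and eBayes with an intensity trend), with 2-sided tests and Benjamini-Hochberg adjustment at 0.05. Gene pairs were tested by an exact permutation test over the 84 splits of 9 mice into 3 and 6. Alternatives were pseudocounts of 1 and 0.01, other filters and scalings, other eBayes settings, array weights, a minimum fold of 2, an adjusted p under 0.01, and leaving out each mouse. The fit was tested on simulated data. The members, gene lists, markers, and motifs were chosen with earlier results of these data known. Named were all members, and from each list up to 3 higher and 3 lower called genes without overlap between groups, by log2 fold change, and 1 gene that this rule named is not reported here. The pancreatic gene was added later. Member positions are those of the deposited table, counted from 1. Promoters are from RefSeq (GRCm38.p6), and transcripts and UTRs from GENCODE vM21. Older names were matched for Hjv (Hfe2), Erfe (Fam132b), and Flvcr2 (Mfsd7c), and Smad8 was found as Smad9. Bmp6, Nog, Il22, Hephl1, and Ftmt were below the filter. The markers Ly6g and Ahsp had no row. Scripts ran in Python 3.11.15 with pandas 2.3.3 and scipy 1.17.1. Mice of a group are separate animals, and the labels name no batch.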

Additional observations from a re-analysis of the deposited data

Results flagged for a closer look

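In 57 sets of values in the 6 control mice, the gap between the highest or lowest mouse and the next, as a share of the whole range, exceeded Dixon's 95% critical value in 3. By chance, 2.85 would do so. The top value of control mouse 3 stood apart in Ftl1 (0.691, at 746 FPKM), the ferritin gene whose transcript end is shared with pseudogenes. That of control mouse 4 stood apart in the summed erythroid markers (0.693, at 50532 FPKM) and in Ccdc88a, 1 of the genes nearest to Steap4 (0.63, at 1.08 FPKM).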

How the results depend on the processing

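Of 190 values of single members under other settings, 177 kept both direction and side of the threshold, and 7 members did so in all 19 settings run for each (Hamp2, Slc40a1, Cp, Steap4, Fth1, Ftl1, and Tfr2). The members called numbered 5 to 8, the fewest with a minimum fold of 2. That minimum also left 3142 genes and 26 iron pathway genes called in place of 6230 and 49. Leaving out 1 mouse gave 4814 to 6830 genes, 6 to 8 members, and 36 to 50 pathway genes.

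Hamp, which never passed the test, turned to 0.31 with the Saa genes left out, to 0.22 after quantile normalization, to 0.025 without anti-CD40 mouse 2, and to 0.0019 without control mouse 7, and ranged from -0.16 to 0.025 when 1 mouse was left out. Tfrc passed at 1.46 with the Saa genes left out, which is 1.11 relative to the median of all genes there, and at 1.16 with array weights. It ranged from 0.86 to 1.34 when 1 mouse was left out, passing without control mouse 4. Trf no longer passed without the filter on low values (0.70, adjusted p = 0.520 from limma), and ranged from 0.59 to 0.83 when 1 mouse was left out, not passing without anti-CD40 mouse 2, 5, or 9 or control mouse 3 or 7. The causes were not tested.

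With 1 mouse left out, the pair differences were 4.54 to 4.97 for Hamp against Hamp2, 1.61 to 2.1 for Fth1 against Ftl1, and 1.12 to 1.85 for Tfrc against Tfr2. With a treated mouse left out no pair could pass, since the 28 splits that remain allow no adjusted p below 0.0714. With a control mouse left out, the first and second pair had an adjusted p of 0.0536 (exact permutation test, over the 3 pairs), except without control mouse 4, where all 3 pairs had 0.0357.

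With the Saa genes left out, 77.4% of called genes were higher, against 52.0% as deposited, and without control mouse 4 or anti-CD40 mouse 5 the members called numbered 8 and 6. Low genes rest on few reads, as those given for Il6, Bmp6, and Ltf show. No paired analysis was possible because the mouse numbers of the groups are all different.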
